A study of Mus musculus with 5 samples.

Results

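The genes described here encode 9 surface proteins that define the LSK gate of mouse bone marrow (lineage-negative, Sca-1-positive, c-Kit-positive cells) and its stem and multipotent subsets. They are Kit, Ly6a, Procr, Cd34, Flt3, Tek, Robo4, Eng and Cxcr4. They were listed by name with earlier results of these data known, and the rule for choosing them uses no measured value. All 9 were found among the 24399 genes of the count table and passed its low-count filter. Messenger RNA had been sequenced from LSK cells sorted from C57BL/6 mice aged 12 months in a study of germ-line knockout animals. Titles mark 3 libraries as KO and 2 as WT. Against its title, each KO library carries a heterozygous genotype label, and the WT libraries carry a wild-type one; the first group is therefore called KO-labelled. The labels do not say whether each library came from 1 animal or from a pool, so the spread on which p-values rest may be technical. In bulk RNA, fewer cells of a type and less RNA per cell cannot be told apart.

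Haematopoietic stem cells are held in the marrow and kept quiescent by signals that several of these receptors receive. Kit is the receptor tyrosine kinase for stem cell factor, and Ly6a encodes Sca-1, a lipid-anchored surface protein that interferons induce. Procr (the protein C receptor EPCR), Tek (the angiopoietin receptor Tie2), Robo4 (a roundabout receptor) and Eng (endoglin, a co-receptor of the TGF-beta family) are known from endothelial cells and are enriched in long-term stem cells. Cd34, a sialomucin, and Flt3, the receptor for FLT3 ligand, are gained as LSK cells pass from stem cells to multipotent progenitors. Cxcr4 is the receptor for the chemokine CXCL12, which retains stem cells in their niche. Cells were sorted on the proteins of Kit and Ly6a, so the gate bounds those proteins but not their RNA.

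The comparison asks whether LSK cells of the KO-labelled libraries carry a different amount of these receptor transcripts than WT cells. None of the 9 genes passed edgeR's quasi-likelihood test with Benjamini-Hochberg adjustment over all genes. Ly6a and Cxcr4 stood 1.24-fold and 1.20-fold higher in the KO-labelled libraries, Robo4 stood 1.25-fold lower and Kit 1.09-fold lower, each with groups that did not overlap. Procr, Cd34, Flt3, Tek and Eng had overlapping groups. Across all genes 287 of 14565 passed (1.97%); 0.790% of tested genes were called higher and 1.18% lower with the KO label. Of the 9 genes, 3 had an unadjusted p under 0.05 (Ly6a, Cxcr4 and Robo4), as did 13.8% of all tested genes. DESeq2 called 0 of the 9, and sample-weighted limma called 1, Robo4, while over all tested genes they called 575 and 624. Groups did not overlap for 2 of the 9 genes in the higher and 2 in the lower direction, while 16.5% and 16.3% of all tested genes separated in these directions, 32.8% in all. The median log2 fold change of the 9 genes was -0.014, and that of all tested genes was 0.001.

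Library totals, with 1 transcript kept per gene, ran from 29964556 to 39691066 counts, and the 9 genes were covered by 1497 to 54221 counts per library. KO library 1 stood apart by transcript length. When genes were split by length into 5 equal bins, the shortest bin in that library had a median log2 deviation of 0.091 from the mean of the 5 libraries and the longest bin one of -0.103, whereas both medians lay between -0.02 and 0.045 in the other libraries. Levels are normalised counts (CPM, counts scaled to a common library size by TMM). Single values are listed by library number, and group values are mean ± SD over the 3 KO-labelled or 2 WT libraries. Fold changes are on the log2 scale, KO-labelled minus WT, with the standard error (SE) of the fit.

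**Figure D1:**
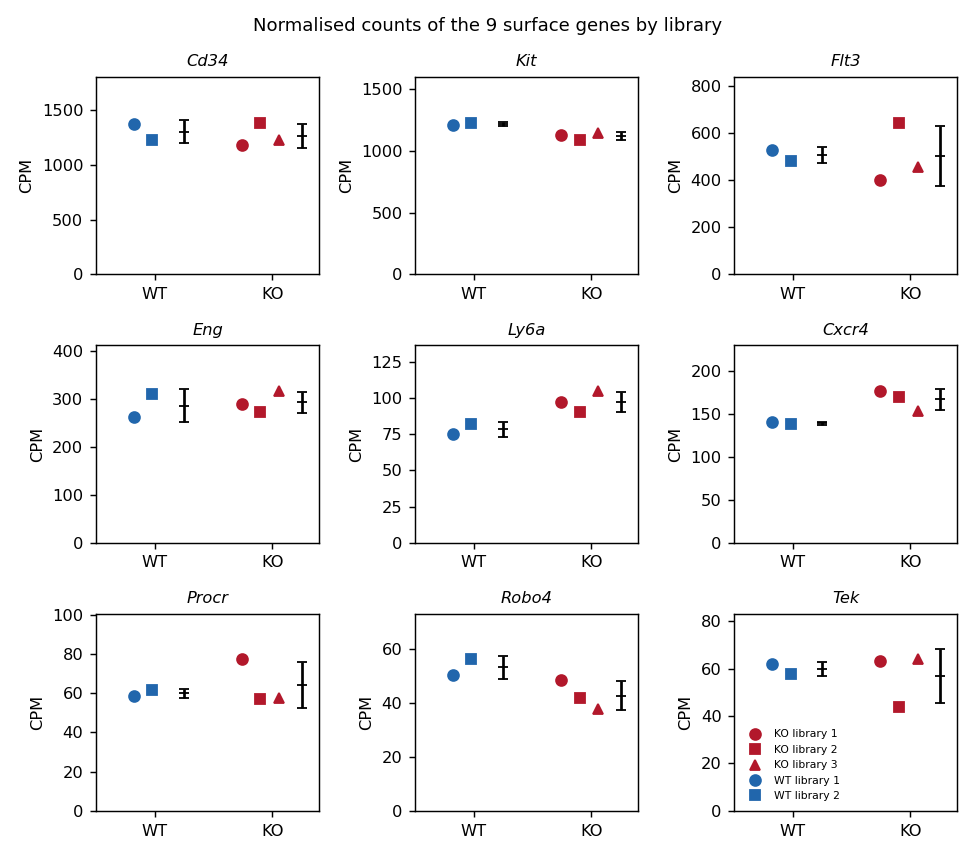
Normalised counts (CPM, vertical axes from 0) of the 9 genes in each of 5 libraries, in order of level per kilobase; points are libraries, horizontal ticks with bars are group means ± SD. The 3 KO-labelled points lie above both WT points for Ly6a and Cxcr4 and below both for Kit and Robo4, and KO library 2 stands apart for Flt3 and Tek.

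Per kilobase of transcript, Cd34 was the most abundant of the 9 at 496 CPM per kilobase in KO-labelled and 510 in WT libraries. Kit followed at 215 and 233, and Flt3 at 137 and 138. Eng (97.0 and 94.8), Ly6a (102 and 82.1) and Cxcr4 (92.5 and 77.2) formed a middle group whose libraries overlapped one another, so their order is not set by these data. Procr stood at 40.1 and 37.6 CPM per kilobase. Robo4 (13.2 and 16.5) and Tek (13.6 and 14.3) were lowest and overlapped each other. Outside those overlaps, each gene's lowest library lay above the highest library of the next gene in the order.

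The genes whose groups did not overlap, Kit, Ly6a, Cxcr4 and Robo4, are described first. Kit measured 1126, 1086 and 1144 CPM in the KO-labelled libraries, against 1205 and 1227 CPM in WT. Every KO-labelled library lay below both WT libraries, but the gap was small: the log2 fold change was -0.12 ± 0.071 (SE), with a 95% interval from -0.27 to 0.033 and an adjusted p of 0.499 (edgeR). With an offset for transcript length, added after the data were seen, the log2 fold change of Kit, whose transcript of 5.21 kilobases is the longest of the 9, was -0.046. Kit was also the steadiest of the 9 genes. Its within-group SD was 0.033 on the log2 scale, smaller than that of nearly all of 7079 genes of at least 30 CPM, of which 3.15% had a smaller one. Those genes were not matched to Kit by level.

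Ly6a, the gene of Sca-1, measured 97.2, 90.5 and 105 CPM in the KO-labelled libraries, against 74.9 and 82.0 CPM in WT. All KO-labelled libraries were above both WT libraries (97.4 ± 7.04 against 78.4 ± 5.03 CPM). The log2 fold change was 0.31 ± 0.10 with a 95% interval from 0.092 to 0.53, and it did not pass over all genes in edgeR (adjusted p = 0.175). Over 14 alternative settings it ran from 0.25 to 0.38 and passed in 0. The interval covers folds from 1.07 to 1.45.

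Cxcr4 measured 177, 170 and 153 CPM in the KO-labelled libraries, against 141 and 138 CPM in WT. The groups did not overlap, and the WT libraries lay close together (167 ± 12.4 against 139 ± 1.74 CPM). The log2 fold change was 0.26 ± 0.091, with a 95% interval from 0.062 to 0.46 and an adjusted p of 0.210 in edgeR. Its range over 14 alternative settings was 0.21 to 0.32, and it passed in 0 of them.

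Robo4 had the largest log2 fold change of the 9 in size. It measured 48.6, 41.7 and 37.9 CPM in the KO-labelled libraries, against 50.2 and 56.2 CPM in WT. The groups did not overlap, although KO library 1 lay near WT library 1. The log2 fold change was -0.32 ± 0.13 (SE; 42.7 ± 5.43 against 53.2 ± 4.24 CPM), with a 95% interval from -0.60 to -0.036 and an adjusted p of 0.297 in edgeR. Robo4 passed without KO library 1 (log2 fold change -0.42, adjusted p = 0.0445, edgeR) and with sample-weighted limma (-0.40, adjusted p = 0.0481). It passed in no other of 14 alternative settings, with an adjusted p of 0.620 (edgeR) without KO library 3. Over all genes, 675 passed without KO library 1 and 624 with sample-weighted limma, against 287 in the main fit.

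Upstream sequence is shown for Kit, Cxcr4 and Robo4, members whose groups did not overlap, since the series concerns DNA methylation and methylation acts at CpG sites, written here in capitals. Methylation was not analysed here. RefSeq start sites on GRCm38.p6 were matched for 8 of the 9 genes; Ly6a was not among them. From the 250 bases before each start, the 80 nearest to it were left out, since other gene models begin there, and the first of the Kit starts was used. The windows lie at chr5:75574737-75574906 on the plus strand (Kit), chr1:128592380-128592549 on the minus strand (Cxcr4) and chr9:37401722-37401891 on the plus strand (Robo4), each 170 bases, written 5′ to 3′.
Kit: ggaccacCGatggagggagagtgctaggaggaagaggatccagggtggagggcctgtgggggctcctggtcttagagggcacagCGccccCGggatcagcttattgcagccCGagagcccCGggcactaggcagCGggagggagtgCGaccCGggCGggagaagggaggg
Cxcr4: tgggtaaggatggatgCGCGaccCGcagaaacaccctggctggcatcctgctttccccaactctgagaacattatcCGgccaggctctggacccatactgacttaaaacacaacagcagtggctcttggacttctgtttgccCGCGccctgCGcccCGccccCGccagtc
Robo4: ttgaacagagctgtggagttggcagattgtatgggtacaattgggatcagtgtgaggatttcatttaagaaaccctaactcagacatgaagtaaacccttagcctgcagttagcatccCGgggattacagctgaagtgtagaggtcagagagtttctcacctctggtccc
The Kit window held 9 CpG sites (CG, the same on both strands), that of Cxcr4 9 and that of Robo4 1. Of 32851 promoter windows of the same length, 26.1% held at least 9 and 86.3% at least 1, with a median of 3. Among the other genes, the windows of Procr and Flt3 held 10 and 7 sites, and those of Cd34, Tek and Eng held 3, 2 and 1.

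Procr, Tek and Eng, which like Robo4 are enriched in long-term stem cells, gave no common direction. Procr measured 77.3, 57.1 and 57.7 CPM in the KO-labelled libraries, against 58.4 and 61.7 CPM in WT. KO library 1 was the highest, and the other KO-labelled libraries lay just under the WT libraries. The log2 fold change was 0.093 ± 0.14 (95% interval -0.20 to 0.39, adjusted p = 0.832, edgeR), and without KO library 1 it was -0.065.

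Tek measured 63.2, 43.8 and 64.0 CPM in the KO-labelled libraries, against 62.0 and 57.8 CPM in WT. KO library 2 was low and the WT libraries lay between it and the remaining KO-labelled libraries. The log2 fold change was -0.072 ± 0.15 (95% interval -0.40 to 0.26, adjusted p = 0.891, edgeR), and without KO library 2 it was 0.084. Eng measured 289, 273 and 317 CPM in the KO-labelled libraries, against 262 and 311 CPM in WT. The groups overlapped almost fully, and its log2 fold change was 0.033 ± 0.10 (95% interval -0.18 to 0.24, adjusted p = 0.929, edgeR).

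The progenitor genes did not separate the groups either. Cd34 measured 1182, 1388 and 1229 CPM in the KO-labelled libraries, against 1378 and 1229 CPM in WT. Its log2 fold change was -0.042 ± 0.087 (95% interval -0.23 to 0.15, adjusted p = 0.891, edgeR). Full-length and truncated CD34 arise from alternative splicing, and the less abundant Cd34 transcript carried 98.0% of the counts of the kept one, so the isoforms were not resolved.

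Flt3 measured 402, 644 and 456 CPM in the KO-labelled libraries, against 530 and 481 CPM in WT. The lowest and the highest library were both KO-labelled, 1.60-fold apart, and the WT libraries lay between them. The group means were nearly the same, 501 ± 127 against 505 ± 34.1 CPM, but the interval of the log2 fold change was the widest of the 9 genes (-0.014 ± 0.18, 95% interval -0.42 to 0.39, adjusted p = 0.989, edgeR). Flt3 therefore could have differed by up to 1.31-fold upwards or to 0.748 of the WT level within that interval.

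**Figure D2:**
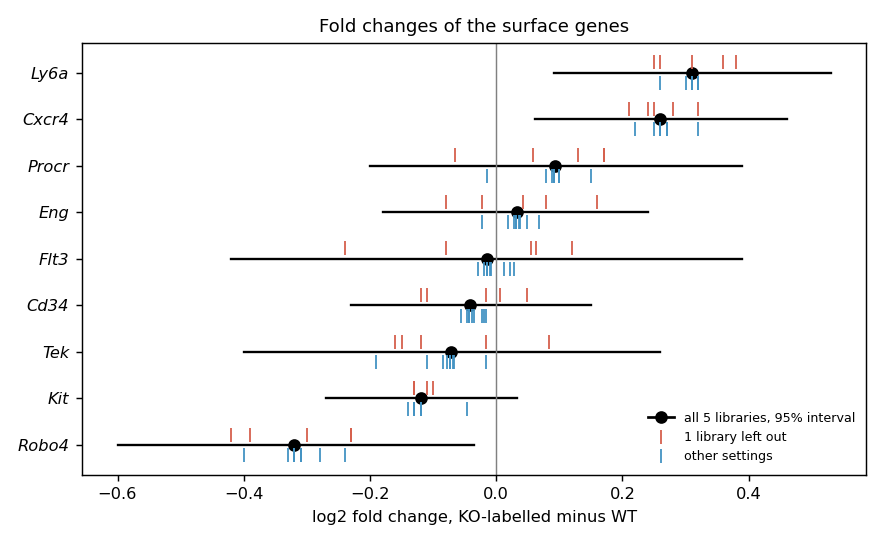
Log2 fold changes (horizontal axis, KO-labelled minus WT) of the 9 genes; black points and lines are the estimate and its 95% interval, red ticks the values with 1 library left out and blue ticks those of other settings. The intervals of Ly6a, Cxcr4 and Robo4 exclude 0 before adjustment for multiple tests, and the estimates of Procr, Cd34, Flt3, Tek and Eng fall on both sides of 0.

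Spread between libraries of a group differed widely among the 9 genes. Flt3 had a within-group SD of 0.29 on the log2 scale, larger than 97.3% of the 7079 genes of at least 30 CPM, whose median was 0.11. Those genes were not matched by level. Tek followed at 0.26 (larger than 95.3%) and Procr at 0.20 (larger than 88.7%). Robo4 (0.16), Eng (0.13), Cd34 (0.12), Ly6a (0.10) and Cxcr4 (0.090) were closer to that median.

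Ratios within a library show the same libraries. The ratio of Flt3 to Procr was 5.20, 11.3 and 7.89 in the KO-labelled libraries, against 9.07 and 7.80 in WT. KO library 1 had the lowest and KO library 2 the highest ratio, and the group means hardly differed (2.95 ± 0.56 against 3.07 ± 0.15 on the log2 scale). The log2 ratios of Cd34 to Procr (4.32 ± 0.34 against 4.44 ± 0.17), Flt3 to Cd34 (-1.36 ± 0.23 against -1.37 ± 0.020) and Tek to Procr (-0.18 ± 0.28 against -0.0032 ± 0.13) overlapped as well. The ratio of Kit to Ly6a was 11.6, 12.0 and 10.9 in the KO-labelled libraries, against 16.1 and 15.0 in WT. It separated the groups, as both of its genes did in opposite directions (3.52 ± 0.067 against 3.96 ± 0.074 on the log2 scale). The ratios are descriptions and were not tested.

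**Figure D3:**
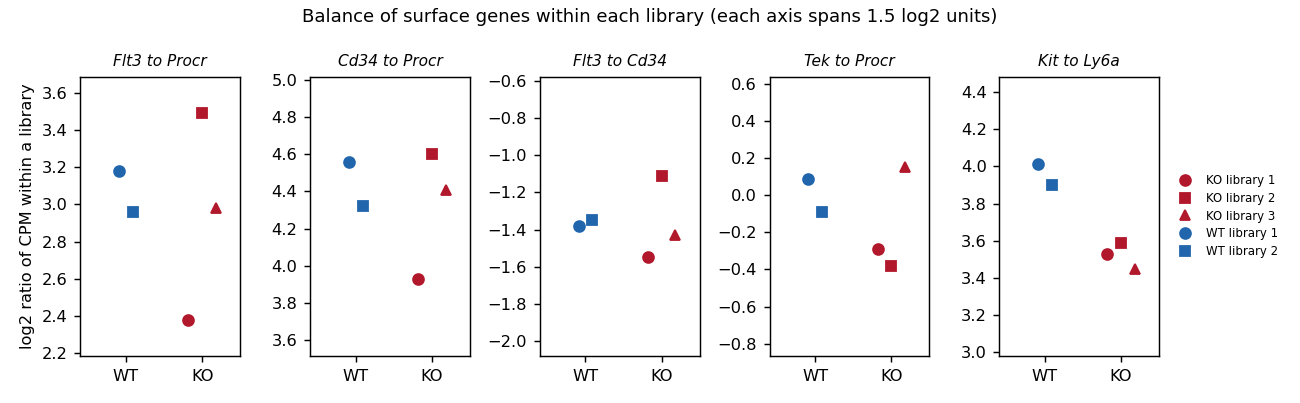
Log2 ratio of CPM of 2 genes within each library (vertical axes, each spanning 1.5 log2 units), for 5 pairs; points are libraries. KO library 1 and KO library 2 bracket the WT libraries for Flt3 to Procr, and the Kit to Ly6a ratio is lower in all 3 KO-labelled libraries (3.45 to 3.59) than in WT (3.90 and 4.01).

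By profile over the 5 libraries, the genes nearest to Flt3 among 9780 others of at least 10 CPM were Pfkfb4, Rnaseh1 and Slc29a3, with root mean square differences of 0.0338, 0.0586 and 0.0598 on the centred log2 scale. Those nearest to Tek were Zscan12 (0.0439), Slc14a1 (0.0588) and Ago4 (0.0597), and those nearest to Robo4 were Wbp1 (0.0238), Fam234a (0.0394) and Vdr (0.0453). Wbp1, for example, measured 57.5, 47.6 and 43.9 CPM in the KO-labelled libraries, against 57.4 and 63.3 CPM in WT. The other 6 genes had a log2 range under 0.5 and were not matched.

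Surface genes outside the 9 that also subdivide LSK cells included several that fell. Of 30 such genes, 5 fell and 0 rose (16.7% called, against 1.18% lower among all tested genes), with a list median of -0.26. This list and those that follow were chosen with earlier results of these data known, so their shares beside those of all genes are descriptions. Itga6, the laminin-binding integrin alpha 6, measured 291, 260 and 302 CPM in the KO-labelled libraries, against 438 and 424 CPM in WT. It fell 1.52-fold (log2 fold change -0.60 ± 0.084, adjusted p = 0.00348, edgeR). The groups were far apart compared with their spread. Itga2b, the integrin CD41 of stem cells and megakaryocytes, fell 1.57-fold (146 ± 18.8 against 229 ± 0.276 CPM). Alcam, an adhesion molecule of the immunoglobulin family, fell 1.55-fold (85.3 ± 8.25 against 132 ± 12.4 CPM), and Il6st, the shared gp130 chain of interleukin-6 type receptors, fell 1.45-fold (99.4 ± 9.40 against 144 ± 11.1 CPM). Prom1, the gene of CD133, was named after its values were seen and fell by 1.35 on the log2 scale (3.76 ± 0.389 against 9.59 ± 0.498 CPM, adjusted p = 0.0190, edgeR). Without KO library 1, 9 of the 30 genes passed, without KO library 3, 2 did (Itga6 and Itga2b), without either WT library 0 did, and 8 passed with sample-weighted limma. With a replicate block 3 passed (Itga6, Itga2b and Alcam). Counts over all genes moved in the same directions. From 287 in the main fit they rose to 675 without KO library 1 and 624 with sample-weighted limma. They fell to 135 without KO library 3 and 160 with the block.

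KO library 2 was the lowest of the 5 libraries for 12 of these 30 genes (40.0%), against 16.7% of all tested genes. KO libraries 1 and 3 were lowest for 26.7% and 20.0% (28.0% and 14.5% of all tested genes). WT libraries 1 and 2 were lowest for 6.67% each (21.2% and 19.6%). The list leaned lower in the KO-labelled libraries as a group, so the 40.0% does not separate KO library 2 from the group difference. These counts, and the genes in the rest of this paragraph, were chosen after the values were seen. In KO library 2, Esam, an adhesion molecule of stem cells, stood at 55.7 CPM against 91.2 CPM in KO library 1. Vwf, the gene of von Willebrand factor, which marks platelet-biased stem cells, stood at 181 against 337 CPM, and Cd9, a tetraspanin, at 72.6 against 132 CPM. The lowest Tek and Procr and highest Flt3 values, all in that library, stood beside low values of other stem cell genes, and the share of each subset among the sorted cells was not measured.

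Some genes of the Ly6 family rose. Of 12 family genes, Ly6a itself included, 11 were in the table and 7 were tested. Of these 2 rose and 0 fell (28.6% called, against 0.790% higher among all tested genes). The list median of 0.87 included Ly6a and genes near the limit of detection. Ly6d, a marker of lymphoid progenitors, measured 8.80, 12.5 and 12.9 CPM in the KO-labelled libraries, against 3.50 and 2.48 CPM in WT, and rose 3.82-fold (adjusted p = 0.00443, edgeR). Ly6c2, a monocyte surface gene, rose 1.45-fold (96.3 ± 13.7 against 66.3 ± 1.71 CPM). Both lost the call without either WT library, and Ly6c2 also without KO library 3, with transcripts summed and in the fit with a replicate block. Ly6e was the most abundant at 1414 ± 44.8 against 1403 ± 24.5 CPM (log2 fold change 0.011 ± 0.071). These genes resemble one another and how shared reads were counted is not given, so Ly6a and Ly6c2 are uncertain for that reason, although 0 other genes had counts identical to those of Ly6a.

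The ligands and co-receptors of the 9 genes held 0 calls among 22 tested of 25, and 1.97% of all tested genes were called. An unadjusted p under 0.05 (edgeR) was reached by 3, against 13.8% of all tested genes, and the list median was -0.092. DESeq2 called 0, and sample-weighted limma called 2, Tgfbr3 and Podxl, while over all tested genes they called 575 and 624. Angpt1, the ligand of Tek, was transcribed within LSK cells at 716 ± 68.0 against 720 ± 4.78 CPM and its adjusted p was 0.983 (edgeR). Itgb1, the shared beta 1 integrin chain, stood at 463 ± 36.3 against 499 ± 42.5 CPM. The ligands of Kit, Cxcr4 and Flt3, named after their values were seen, were low: Kitl did not exceed 0.734 CPM, Cxcl12 0.435 CPM and Flt3l 10.1 CPM in any library.

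Signalling and turnover genes downstream of Kit, Flt3, Tek, Eng and Cxcr4 held 0 calls among 29, with a median of -0.0054. An unadjusted p under 0.05 (edgeR) was reached by 5, against 13.8% of all tested genes. DESeq2 and sample-weighted limma each called 1, Smad1, a mediator of BMP signalling, while over all tested genes they called 575 and 624. Gnai2, the inhibitory G protein subunit that couples to Cxcr4, stood at 786 ± 32.1 against 789 ± 15.4 CPM. Pik3r1, the regulatory subunit of PI3 kinase, stood at 343 ± 6.49 against 390 ± 7.15 CPM with an adjusted p of 0.294 (edgeR). Transcription factors that act on these receptor genes held 0 calls among 20, with a median of 0.013 and 0 calls by DESeq2 or limma. Of the 20, 3 had an unadjusted p under 0.05 (edgeR), against 13.8% of all tested genes. Etv6, an ETS-family repressor, stood at 837 ± 33.5 against 971 ± 10.5 CPM (adjusted p = 0.195, edgeR) and Lmo2, a LIM-domain adaptor of stem cell transcription complexes, at 832 ± 63.7 against 805 ± 19.8 CPM.

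Tek, Robo4, Eng and Procr are also endothelial genes, so endothelial markers were read beside them. The list was mixed. Egfl7 (78.1 to 102 CPM), Emcn (33.9 to 53.0 CPM), Kdr (9.67 to 18.5 CPM) and Ramp2 (4.81 to 16.1 CPM) were present in every library. Sox18, Plvap and Clec14a lay between 1.23 and 4.18 CPM. Cdh5, Sox17 and Mmrn2 were at or near 0: Cdh5 lay between 0.332 and 1.59 CPM, Sox17 had 0 counts in every library and Mmrn2 did not exceed 0.0760 CPM. Flt1 did not exceed 1.16 CPM, and Stab2, Lyve1, Ptprb and Fabp4 did not exceed 0.937 CPM. The genes of these level groups were named after their values were seen. Of 15 tested among 18 markers, 2 fell and 0 rose (13.3% called, against 1.18% lower among all tested genes, median -0.089). The tight junction gene Cldn5 fell 5.61-fold (1.87 ± 0.468 against 10.5 ± 0.608 CPM) and Pecam1, which LSK cells also express, fell 1.43-fold (141 ± 15.2 against 202 ± 7.11 CPM). The summed level of the list was 505 to 659 CPM in KO-labelled and 699 to 782 CPM in WT libraries. Most of it came from Pecam1 and from Vwf, which also marks platelet-biased stem cells. Neither call held without either WT library, and Pecam1 also lost it without KO library 3 and with the replicate block.

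Markers of cells that the gate should remove or that also carry Kit were read in the same way. Of 15 tested among 16 lineage-positive markers, 1 fell and 0 rose (6.67% called, against 1.18% lower among all tested genes, median -0.10). Their summed level was 118 to 154 CPM in KO-labelled and 186 to 205 CPM in WT libraries, most of it from Itgam and Klrb1c. Klrb1c, a lectin-like receptor of NK cells, fell 2.03-fold, and Itgam, the myeloid integrin CD11b, stood at 59.7 ± 24.0 against 94.0 ± 3.34 CPM. Its log2 fold change of -0.65 did not pass (adjusted p = 0.456, edgeR), but it passed without KO library 3 (-1.01, adjusted p = 0.0114) and with the replicate block (-1.03, adjusted p = 0.00530). Cd3e, a chain of the T cell receptor complex, did not exceed 3.24 CPM in any library. Of 8 tested among 10 mast cell and basophil markers, 1 rose and 0 fell (12.5% called, against 0.790% higher among all tested genes, median 0.44). Their sum was 111 to 161 against 106 to 113 CPM. Il1rl1, the interleukin-33 receptor, rose 2.07-fold, while Cpa3 (32.6 ± 0.702 against 26.9 ± 4.42 CPM) and Gata1 (36.3 ± 8.80 against 24.1 ± 2.60 CPM) did not pass, and the mast cell proteases Tpsb2 and Cma1 were at or below 0.133 CPM. Of 4 tested among 8 stromal markers 1 fell, Pdgfrb (1.72-fold), and 0 rose, against 1.18% lower among all tested genes. The list median of -0.85 rests partly on genes near the limit of detection. These were Col1a1 (mean 0.230 against 0.438 CPM) and Lepr (mean 0.372 against 1.22 CPM), and neither passed. Col1a2, a fibrillar collagen gene, averaged 18.0 against 21.0 CPM (log2 fold change -0.22 ± 0.21, adjusted p = 0.708, edgeR). The stromal sum was 72.9 to 97.8 against 130 to 139 CPM, most of it from Pdgfrb (54.6 to 83.1 against 105 to 118 CPM), and Lum had 0 counts throughout. None of the Klrb1c, Il1rl1 and Pdgfrb calls held without either WT library, and those of Il1rl1 and Pdgfrb were also lost without KO library 3 and with the replicate block. The endothelial, lineage-positive and stromal sums separated the groups in the direction of Kit and Robo4, as did 16.3% of all tested genes. These sums rest mostly on Vwf, Pecam1, Itgam, Klrb1c and Pdgfrb, so they do not stand for their lists as a whole. Their part in the Kit and Robo4 values was not tested.

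**Figure D4:**
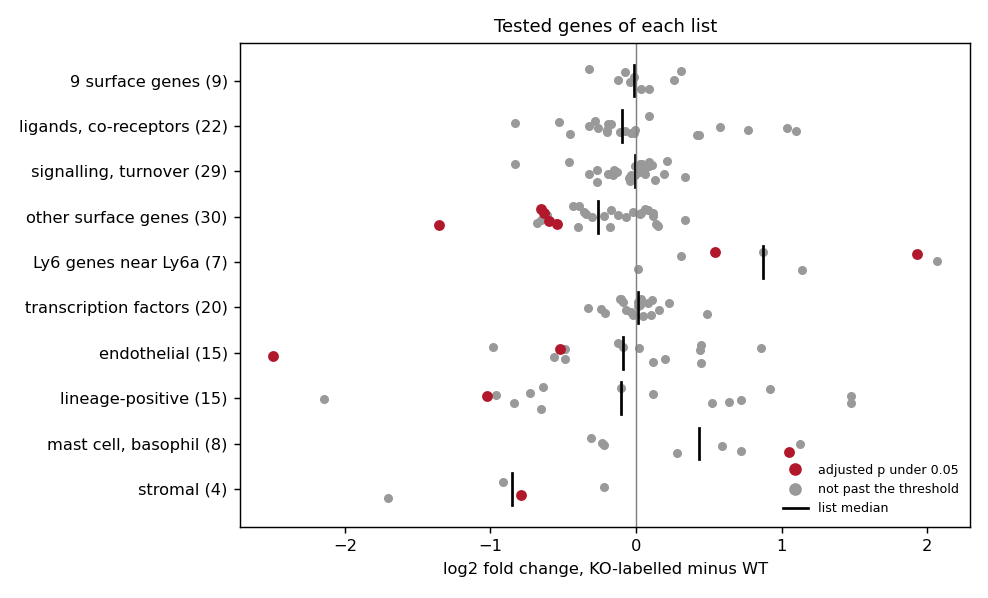
Log2 fold changes (horizontal axis, KO-labelled minus WT) of the tested genes of each list, with the number tested in brackets; red points passed the threshold, grey points did not, black bars are list medians, and vertical scatter within a list only separates the points. The 9 surface genes lie between -0.32 and 0.31 with 0 red points, and the other surface genes hold 5 red points, all below 0.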

How the data were processed

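The deposited table holds raw read counts per RefSeq transcript, made by the authors from stranded mRNA libraries, per the labels' protocols. The tools listed are STAR and featureCounts from Subread 1.4.5-p1, and the build is mm9 (NCBIM37), per the submitters' processing notes. Counting settings, including strand and shared reads, are not stated in those notes. Titles gave the groups. Of 33862 transcripts, 33485 were named from the RefSeq table of GRCm38.p6 and 188 from GENCODE, and 189 (0.362% to 0.459% of counts) kept their accession. The transcript with most counts was kept per gene, since transcripts of a gene shared reads. Transcript lengths came from GENCODE on GRCm38, another build than the counts, so levels per kilobase are approximate.

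After filterByExpr and TMM scaling, 14565 genes were tested with edgeR 4.0.16 (R 4.3.3; robust quasi-likelihood test, two-sided, Benjamini-Hochberg, threshold 0.05). The common biological coefficient of variation was 18.9%. Intervals are 95% intervals of the fit. DESeq2 1.42.0, limma 3.58.1, other scalings and filters, summed transcripts, leaving out each library and a replicate block were alternatives, and an offset for transcript length was added after the data were seen. Log2 CPM used a prior count of 2.

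The members and lists were chosen with earlier results of these data known. Named genes were the 9 members, from each list up to 4 genes past the threshold by smallest p and, where fewer than 2 passed, the 2 most abundant, and for members with a log2 range of at least 0.5 the 3 genes of at least 10 CPM with the nearest profile. The lists were ligands and co-receptors, signalling and turnover, other surface genes, Ly6 genes, transcription factors, and endothelial, lineage-positive, mast cell and stromal markers. The gene targeted by the knockout is not reported here, so no check of the library titles against its level is given.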

Additional observations from a re-analysis of the deposited data

How the results depend on the processing

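Of the 9 genes, Kit, Ly6a, Cxcr4 and Robo4 kept their direction in all 14 alternative settings, and only Robo4 crossed the threshold, at -0.42 without KO library 1 and -0.40 with sample-weighted limma. The other 5 changed sign without passing. With 1 library left out, log2 fold changes ran from -0.065 to 0.17 for Procr, -0.12 to 0.049 for Cd34 (0.0052 without KO library 1), -0.24 to 0.12 for Flt3 (0.055 without KO library 3 and 0.063 without WT library 1), -0.16 to 0.084 for Tek, -0.080 to 0.16 for Eng (-0.022 without KO library 3) and -0.42 to -0.23 for Robo4. With sample-weighted limma Procr was at -0.015 and Flt3 at 0.021, with the length offset Flt3 was at 0.028, and with the replicate block Flt3 was at 0.012 and Eng at -0.023. Among other named genes, Angpt1 (-0.068 to 0.063, 0.0033 without WT library 1), Gnai2 (-0.027 to 0.033, 0.016 without WT library 2) and Lmo2 (-0.010 to 0.10) changed sign with 1 library left out, as did Angpt1 (0.050) and Gnai2 (0.013) with the length offset and Gnai2 (0.028) with the block; the cause was not tested.

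Over all genes DESeq2 called 575 (264 higher, 311 lower) and sample-weighted limma 624 (247 higher, 377 lower). The counts of called, higher and lower genes were 160, 54 and 106 with the replicate block, 455 called and 200 higher with no count filter, and 192 higher with the length offset (157 lower, against 115 and 172 without it). With 1 library left out they ran from 6 to 675, 2 to 312 and 4 to 363, where leaving out a WT library leaves 1, assumed to vary like the others. Calls in the lists then ran from 0 to 1 among the 9 genes, 0 to 2 in ligands, 0 to 1 in signalling, 0 to 9 in other surface genes, 0 to 2 in Ly6, endothelial and lineage-positive genes and 0 to 1 in mast cell and stromal genes. Sample-weighted limma called 1 of the 9 genes, 2 ligands, 1 signalling, 8 other surface and 3 lineage-positive genes. DESeq2 and no count filter each called 1 signalling gene, and no filter 0 stromal genes. The block called 3 other surface, 1 Ly6, 1 endothelial, 2 lineage-positive, 0 mast cell and 0 stromal genes, summed transcripts 1 Ly6 and 0 stromal genes, and library totals 0 mast cell genes. Deviations from the group mean of same-numbered KO and WT libraries correlated across genes at 0.043 and 0.017. With 2 WT libraries, the WT deviations mirror each other, so these correlations cannot settle whether equal numbers mark pairs. The labels do not say that they do. The lowest count of the 9 genes in any library was 1497; whether more libraries would change their calls was not tested.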

Other observations

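Among surface genes of stem and progenitor subsets that were not named by the rule, the macrophage colony-stimulating factor receptor Csf1r measured 23.7, 33.9 and 33.1 CPM in the KO-labelled libraries, against 51.7 and 43.1 CPM in WT (log2 fold change -0.65 ± 0.16, adjusted p = 0.0674, edgeR). It was chosen after its values were seen, and its groups did not overlap. Slamf1, the stem cell marker CD150, stood at 26.2 ± 5.70 against 35.2 ± 4.33 CPM (adjusted p = 0.307, edgeR) and Thy1 at 14.3 ± 2.11 against 21.0 ± 4.18 CPM (adjusted p = 0.210, edgeR), both also without overlap.

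None of the TGF-beta family receptors in the ligand and co-receptor list, with which endoglin acts, passed the threshold in edgeR, and they did not share a direction. Tgfbr1 stood at 54.7 ± 4.87 against 68.1 ± 1.18 CPM, Tgfbr2 at 116 ± 3.99 against 139 ± 12.0 CPM and Tgfbr3 at 67.3 ± 18.4 against 97.1 ± 3.64 CPM, with adjusted p values of 0.206, 0.210 and 0.208 (edgeR) and no overlap of the groups. Acvrl1, a receptor that endoglin acts with, was low and lay the other way, at 3.26 ± 1.38 against 1.92 ± 0.912 CPM. Its log2 fold change was 0.77 with an adjusted p of 0.555 (edgeR), and its groups overlapped, as those of Eng did. These genes were singled out after their values were seen, and 32.8% of all tested genes separated the groups.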
